A study of Rattus norvegicus with 10 samples.

Results

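Solute carriers are the membrane proteins that move amino acids, sugars, metals, ions, vitamins and metabolites into cells and between their compartments. The set described here holds the rows of the deposited table whose symbol has the form of a numbered solute carrier gene, such as Slc2a1. It was compared between ARSL knockout (KO) and wild-type (WT) RCS cells. Of 161 such rows, 7 were set aside by name (Slc26a2, Slc35b2, Slc35b3, Slc35d1, Slc20a1, Slc20a2 and Slc10a7), which left 154 of 10184 listed genes. RCS is a rat chondrosarcoma line that lays down a cartilage-like matrix, and ARSL (arylsulfatase L) is a sulfatase of the secretory pathway. There were 5 ARSL KO libraries and 5 WT libraries, labelled as biological replicates of untreated cells in DMEM with 10% serum and 2 mM glutamine, with RNA taken 48 h after seeding. Whether the KO cells are 1 clone or several is not given, nor whether the replicates came from separate cultures, so the p-values measure the spread between these libraries, and genotype cannot be told apart from other differences between the lines.

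As background, carriers of one substrate often differ in where they sit and what they exchange. Some amino acid carriers of the Slc7 family, such as Slc7a5 and Slc7a11, work as exchangers that pair with the heavy subunit Slc3a2, while its cationic amino acid carriers do not. The Slc2 family lets hexoses pass down their gradient. Slc39 proteins bring zinc and other metals into the cytosol, while Slc30 proteins move zinc out of it or into vesicles. Slc35 proteins supply the Golgi with nucleotide sugars for glycan synthesis, and Slc25 proteins carry metabolites across the inner mitochondrial membrane. Chondrocytes live in a tissue with few vessels, use much glucose and release lactate, and need a large supply of sugars, amino acids and sulfate for their matrix.

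Levels are given as normalised reads, which are the reads of a gene divided by the size factor of its library. They are not scaled by transcript length, so they compare libraries for a gene and not genes with each other. Differences are given on the log2-like scale of the deposited values, on which the fold change of a gene with few reads is compressed. The libraries held 2065594 to 2591819 reads over the listed genes, of which 17250 to 21013 belonged to the 154 carriers. The carriers took 0.842 ± 0.0189% of reads in KO and 0.831 ± 0.0389% in WT (SD, n = 5 each), and the ranges overlapped. WT 3 and WT 4 stood apart from the other libraries on the first principal component, which held 51.1% of the variance, with KO 4 next to them. They scored 28.0 and 26.8, KO 4 scored 7.91 and the other 7 libraries lay between -15.0 and -2.96. Of 15 chondrocyte markers 13 had a row, with summed levels of 44957 to 59672 normalised reads in KO and 45499 to 76305 in WT. Sox9 and Snorc were not analysed here. Of 8 fibroblast markers 2 had a row (16.6 to 41.0 normalised reads in KO, 12.2 to 49.2 in WT), of 5 leukocyte markers 2 (10.7 to 28.3 in KO, 26.1 to 47.0 in WT), of 6 osteoblast markers 4 (651.8 to 1034 in KO, 760.9 to 1338 in WT), of 4 epithelial markers 1 (395.5 to 497.4 in KO, 431.2 to 509.5 in WT) and of 3 endothelial markers 0. The osteoblast marker Alpl, also made by maturing chondrocytes, had 210.5 to 297.7 normalised reads in KO, against 302.9 to 420.6 in WT. Its limma adjusted p was 0.0566, and 0.0108 without WT 3, WT 4 and KO 4. Spp1 went the other way, with a difference of 0.12 (limma adjusted p = 0.841), and of 0.39 in that subset (adjusted p = 0.138). Runx2 had a difference of -0.23 (limma adjusted p = 0.626), and of 0.02 in that subset (adjusted p = 0.968). Ibsp was not tested. Mitochondrially encoded genes took 3.67% to 5.03% of reads in KO and 4.47% to 6.41% in WT, and every KO library lay below WT 1, WT 2 and WT 5. Their part in the results below was not tested. No row carried the symbol Arsl or its older name Arse, so the genotype labels were not checked against the targeted gene. In bulk RNA, fewer cells that express a gene and less RNA of it per cell cannot be told apart.

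In KO cells the only carrier that passed the test was Slc41a1, a magnesium transporter, which fell. It had 161.0, 214.0, 185.6, 179.6 and 174.0 normalised reads in the 5 KO libraries, against 313.8, 238.1, 351.2, 294.5 and 268.5 in the 5 WT libraries. Every KO library lay below every WT library, and WT 3 was the highest of all. The means were 182.8 ± 19.6 in KO and 293.2 ± 43.1 in WT (SD, n = 5 each), 1.60-fold lower in KO. The difference was -0.58 on the log2-like scale (SE 0.106, 95% interval -0.80 to -0.35; limma with Benjamini-Hochberg adjustment over 8431 genes, adjusted p = 0.0177). The fall was -0.49 without WT 3, WT 4 and KO 4 (adjusted p = 0.00762). The call was lost without KO 1 (adjusted p = 0.054), KO 3 (0.0589) or KO 5 (0.0625), where the difference stayed between -0.58 and -0.54.

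Both other members of the Slc41 family were listed. Slc41a2 had 99.8, 66.3, 68.3, 42.9 and 74.4 normalised reads in KO, against 65.4, 71.6, 70.0, 44.9 and 58.1 in WT. Slc41a3 had 97.7, 130.3, 76.6, 103.4 and 88.8 in KO, against 71.5, 74.5, 105.0, 100.4 and 87.7 in WT. In these relatives the groups overlapped, with differences of 0.10 (95% interval -0.19 to 0.40, limma adjusted p = 0.764) and 0.12 (95% interval -0.13 to 0.38, adjusted p = 0.672). Whether their change differed from that of Slc41a1 was not tested. In a list of carrier partners and of carriers without an Slc name 0 of 19 tested members passed, beside 1.14% of all tested genes. At that share, 0 calls among 19 genes says little about magnesium transport. Cnnm2 and Nipa1 lay under the filter and were not tested. Without WT 3, WT 4 and KO 4, 1 of the 19 rose, beside 1.34% of all tested genes, and 1 fell, beside 2.22%. Tmem165 rose (limma adjusted p = 0.031, and 0.0942 with all libraries). Mpc2 fell (limma adjusted p = 0.0239, and 0.127 with all libraries). That subset was set with the values of these libraries known. Trpm7, a magnesium-permeable channel, had a difference of 0.00 (SE 0.108, limma adjusted p = 0.998) and Cnnm4, which serves magnesium export, of -0.05 (SE 0.113, adjusted p = 0.867).

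**Figure D1:**
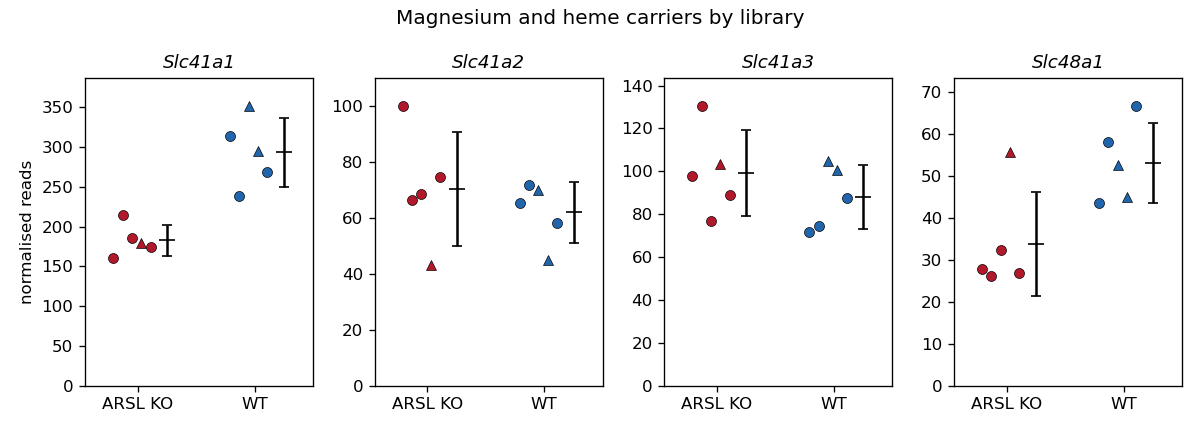
Normalised reads of Slc41a1, Slc41a2, Slc41a3 and Slc48a1 in each ARSL KO (red, left) and WT (blue, right) library, with triangles for KO 4, WT 3 and WT 4 and bars for mean ± SD (n = 5 each). KO and WT points of Slc41a1 do not overlap, with KO at 161.0 to 214.0 and WT at 238.1 to 351.2, while KO 4 lies among the WT points for Slc48a1.

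The filter on low values, a mean at least 1 above the lowest deposited value or about 10.7 normalised reads, left 130 of the 154 carriers to test. Of these, 0 rose, 1 fell and 129 did not pass. That is 0.769% of the tested carriers, beside 1.14% of all 8431 tested genes (0.261% rising and 0.878% falling). At an unadjusted limma p under 0.05 there were 11 carriers, 6 higher and 5 lower in KO, or 8.46%, beside 13.5% of all tested genes. A limma-voom fit on reads recovered from the values likewise gave 0 rises and 1 fall, with 6 and 4 at an unadjusted p under 0.05. KO and WT values did not overlap in 2 carriers, 1.54%, beside 4.26% of all tested genes. KO lay wholly above WT in 1 (1.86% of all tested genes) and wholly below it in 1 (2.4%). The median absolute difference was 0.103 over the carriers and 0.12 over all tested genes, and the median SE was 0.12 over the carriers and 0.121 over all tested genes.

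The 24 carriers left out by the filter had mean levels of 2.26 to 11.5 normalised reads in KO and 1.77 to 13.2 in WT, with 30 to 113 reads in total over the 10 libraries. In a limma fit without the filter 0 of them passed, with 2 at an unadjusted p under 0.05. The smallest adjusted p was 0.359, for the riboflavin transporter Slc52a3, with 0.923 to 6.83 normalised reads in KO, against 1.74 to 18.2 in WT, where WT 3 and WT 4 were the highest.

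Without WT 3, WT 4 and KO 4, 7 carriers passed, 5.38%, beside 3.56% of all tested genes. Slc2a10, Slc38a3 and Slc39a11 rose and Slc41a1, Slc48a1, Slc35a4 and Slc25a4 fell, which is 3 rises beside 1.34% of all tested genes and 4 falls beside 2.22%. These genes were picked for passing in this subset, and the subset was set with the values of these libraries known. Their values in all libraries are given with their substrate groups.

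**Figure D2:**
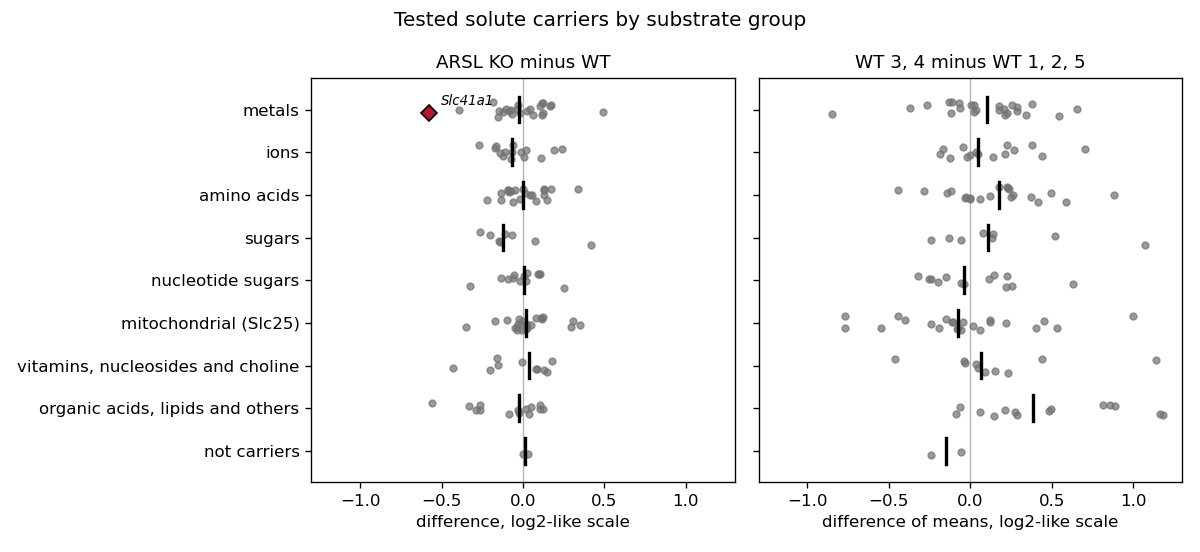
Difference of each tested solute carrier (grey points, 130 in all) by substrate group on the log2-like scale, ARSL KO minus WT on the left and the mean of WT 3 and WT 4 minus the mean of WT 1, WT 2 and WT 5 on the right, with a black bar at each group's median. The red diamond is Slc41a1, the 1 carrier that passed limma, and the sides average different numbers of libraries, so their spreads are not compared.

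Metal carriers, 27 members with 24 tested, held the only call. Besides Slc41a1, 23 did not pass, and the median difference was -0.02, beside 0.01 over all tested genes. Their summed levels were 2555 to 2818 normalised reads in KO and 2611 to 2976 in WT. Slc48a1, which moves heme out of endosomes and lysosomes, had 27.9, 26.1, 32.3, 55.6 and 26.9 normalised reads in KO, against 43.6, 58.1, 52.5, 44.9 and 66.6 in WT. KO 4 lay among the WT values, and the other 4 KO libraries lay below all WT libraries. The difference was -0.39 with all libraries (SE 0.129, limma adjusted p = 0.189) and -0.50 without KO 4 (SE 0.11, adjusted p = 0.0428).

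Slc39a14, an importer of zinc, iron and manganese, had 195.4, 184.6, 286.2, 142.5 and 320.2 normalised reads in KO, against 187.4, 226.5, 107.2, 74.6 and 163.8 in WT. KO 3 and KO 5 were high and WT 3 and WT 4 low, while KO 1, KO 2 and KO 4 lay among the WT values (difference 0.49, SE 0.228, limma adjusted p = 0.36). Slc39a11, a zinc importer of the same family, had 152.1 to 212.6 in KO, against 104.5 to 205.5 in WT (difference 0.17, adjusted p = 0.643 with all libraries; 0.41, adjusted p = 0.048 without WT 3, WT 4 and KO 4). Slc39a7, which releases zinc from the endoplasmic reticulum and had the most reads of the group, had 396.4 to 474.6 in KO, against 349.4 to 450.8 in WT (limma adjusted p = 0.596). Slc39a13, a zinc transporter of the early secretory pathway whose loss in humans causes a connective tissue disorder, had 65.3 ± 10.6 in KO and 68.1 ± 13.7 in WT (SD, n = 5 each; limma adjusted p = 0.919).

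In the list of metal handling genes, 1 of 14 tested members rose, beside 0.261% of all tested genes, 0 fell and 13 did not pass. Without WT 3, WT 4 and KO 4, 1 rose and 1 fell, beside 1.34% and 2.22% of all tested genes. The fall there was that of Steap2 (difference -0.42, limma adjusted p = 0.0168). With all libraries its difference was -0.34 (adjusted p = 0.127). The list was chosen with earlier results of these data known, so the counts are a description and no sign of enrichment. Cybrd1, a ferric reductase that readies iron for uptake, had 54.8, 40.2, 69.2, 95.6 and 42.2 normalised reads in KO, against 11.3, 5.81, 24.1, 19.1 and 20.1 in WT. All KO libraries lay above all WT libraries (difference 0.99, SE 0.17, limma adjusted p = 0.0125). Slc11a2, which imports iron after such reduction, had a difference of 0.05 (SE 0.102, limma adjusted p = 0.876).

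Sugar carriers, 10 members with 8 tested, held 0 calls, with 1 at an unadjusted limma p under 0.05 and a median difference of -0.12. That member was Slc2a10, a hexose and dehydroascorbate transporter of the secretory pathway, with 16.1, 35.8, 20.3, 31.2 and 17.9 normalised reads in KO, against 6.10, 4.84, 28.4, 13.4 and 11.6 in WT. WT 3 lay among the KO values and the other WT libraries lay below them. The difference was 0.42 with all libraries (SE 0.166, limma adjusted p = 0.282) and 0.57 without WT 3, WT 4 and KO 4 (adjusted p = 0.0287). Slc2a1, the main glucose transporter of many cell types, had 84.9 to 145.5 in KO, against 118.4 to 154.3 in WT, and KO 4 was the low value (limma adjusted p = 0.614). Slc37a3, a sugar-phosphate carrier relative with the most reads of the group, averaged 138.8 ± 36.9 in KO and 185.3 ± 93.9 in WT (SD, n = 5 each; limma adjusted p = 0.646), where WT 3 and WT 4 made the spread. In the list of sugar uptake genes and their regulators 1 of 11 tested members rose, beside 0.261% of all tested genes, and 10 did not pass. It was the lactate dehydrogenase subunit Ldhb, an enzyme and not a carrier, at 15.2 to 40.8 normalised reads in KO against 3.49 to 5.74 in WT (limma adjusted p = 0.00832). Its WT mean of 4.75 lay below the filter level of about 10.7. Ldhb thus entered the test only through its KO reads, and its p-value carries that limit. This list too was chosen with earlier results of these data known, so its count is only a description.

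Amino acid carriers, 23 members with 21 tested, held 0 calls, with 1 at an unadjusted limma p under 0.05 and a median difference of 0.00. Slc38a3, a glutamine transporter with the most reads of the group, had 615.2, 628.9, 506.8, 615.8 and 382.1 normalised reads in KO, against 367.0, 355.2, 785.6, 672.1 and 405.9 in WT. WT 3 and WT 4 were the highest of all libraries and WT 1 and WT 2 the lowest. The difference was 0.13 with all libraries (SE 0.203, limma adjusted p = 0.807) and 0.44 without WT 3, WT 4 and KO 4 (adjusted p = 0.0335).

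Slc7a5, the light subunit of the large neutral amino acid exchanger, had 44.0, 46.7, 66.5, 43.9 and 78.9 normalised reads in KO, against 38.4, 48.4, 19.7, 32.5 and 50.7 in WT. The groups overlapped (difference 0.34, SE 0.151, limma adjusted p = 0.335). Its heavy subunit Slc3a2 had 369.4 ± 60.2 in KO and 408.4 ± 50.4 in WT (SD, n = 5 each; difference -0.14, limma adjusted p = 0.631). The cystine exchanger Slc7a11, which shares that subunit, had 15.6 to 21.5 in KO, against 8.72 to 25.2 in WT (limma adjusted p = 0.569). Slc6a12, a betaine carrier used against osmotic stress, had 167.5 to 249.8 in KO, against 192.4 to 243.8 in WT (limma adjusted p = 0.759). In the list of amino acid response and sensing genes 1 of 18 tested members fell, beside 0.878% of all tested genes, and 17 did not pass. It was the stress-induced transcription factor Atf3, at 13.5 to 30.3 normalised reads in KO against 34.9 to 69.8 in WT (limma adjusted p = 0.0387). Earlier results of these data were known when this list was chosen, so its count is only a description.

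Ion carriers, 19 members with 15 tested, held 0 calls, with 1 at an unadjusted limma p under 0.05 and a median difference of -0.07. Slc12a2, the sodium-potassium-chloride cotransporter of many cells and the member with the most reads, had 262.0, 204.2, 232.6, 221.5 and 269.1 normalised reads in KO, against 195.2, 182.9, 158.6, 201.7 and 244.2 in WT. All KO values lay above 4 of the 5 WT values, and WT 5 lay among them (difference 0.24, SE 0.109, limma adjusted p = 0.358). The anion exchanger Slc4a2 had a difference of 0.11 (SE 0.129, limma adjusted p = 0.722). Many of these carriers run on the sodium gradient made by the sodium pump. In the list of the pump and regulators of ion carriers 1 of 14 tested members fell, beside 0.878% of all tested genes, and 13 did not pass. That count is only a description, since the list was chosen with earlier results of these data known. Atp1b1, the beta subunit of the pump, had 93.4, 131.4, 92.3, 133.7 and 99.6 normalised reads in KO, against 251.0, 242.0, 381.8, 386.2 and 323.5 in WT, with no overlap (difference -1.25, SE 0.138, limma adjusted p = 0.000742).

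Nucleotide sugar carriers and their Slc35 relatives, 14 members with 13 tested, held 0 calls, with 2 at an unadjusted limma p under 0.05. The median difference was 0.01. Slc35a4 had 169.6, 159.7, 193.0, 125.9 and 180.3 normalised reads in KO, against 224.0, 267.1, 190.4, 190.2 and 215.6 in WT. Only KO 3 reached into the WT range (difference -0.33, SE 0.114, limma adjusted p = 0.212; -0.35 and adjusted p = 0.0491 without WT 3, WT 4 and KO 4). Slc35e3 had 598.0 to 716.6 in KO, against 466.1 to 609.3 in WT (difference 0.25, SE 0.091, limma adjusted p = 0.228). Slc35b1, an adenine nucleotide exchanger of the endoplasmic reticulum with the most reads of the group, had 837.7 ± 45.2 in KO and 828.0 ± 84.6 in WT (SD, n = 5 each; limma adjusted p = 0.943). The CMP-sialic acid transporter Slc35a1, the UDP-galactose transporter Slc35a2 and Slc35b4, which carries UDP-xylose, had differences of 0.01, 0.02 and 0.10 (SE 0.109, 0.151 and 0.089).

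Mitochondrial carriers of the Slc25 family, 29 members with 23 tested, held 0 calls, with 1 at an unadjusted limma p under 0.05. Their median difference was 0.02. Slc25a4, an ADP/ATP carrier and the carrier with the most reads of all members, had 1716.6, 1871.4, 1823.3, 1323.3 and 1569.5 normalised reads in KO, against 2143.4, 2224.0, 1412.5, 1534.4 and 2150.1 in WT. The groups overlapped, with WT 3 and WT 4 low among the WT libraries and KO 4 the lowest of all (difference -0.17, SE 0.143, limma adjusted p = 0.625). Without those 3 libraries the difference was -0.31 (adjusted p = 0.037). The mitochondrial sums were 4923 to 5672 normalised reads in KO and 5364 to 5750 in WT.

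Carriers of vitamins, nucleosides and choline, 12 members with 10 tested, held 0 calls, with 1 at an unadjusted limma p under 0.05. Slc19a2, a thiamine transporter of the cell surface, had 4.29, 16.3, 20.3, 23.4 and 33.2 normalised reads in KO, against 41.8, 33.9, 23.0, 44.0 and 27.5 in WT (difference -0.43, SE 0.171, limma adjusted p = 0.278). Slc46a1, the proton-coupled folate transporter, was the only tested carrier whose KO values all lay above the WT values. It had 18.3, 18.5, 19.4, 17.6 and 20.6 normalised reads in KO, against 14.8, 17.4, 15.3, 15.3 and 10.6 in WT. The gap was narrow (difference 0.15, SE 0.093, limma adjusted p = 0.506). The choline transporter Slc44a1, with the most reads of the group, had 1408 ± 69.8 in KO and 1287 ± 132 in WT (SD, n = 5 each; limma adjusted p = 0.558).

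Carriers of organic acids, lipids and other substrates, 18 members with 14 tested, held 0 calls, with 1 at an unadjusted limma p under 0.05. That member, Slc22a17, averaged 42.8 ± 9.48 normalised reads in KO and 88.2 ± 57.7 in WT (difference -0.56, SE 0.24, limma adjusted p = 0.32), and its difference was -0.13 without WT 3, WT 4 and KO 4. Slc10a3, with the most reads, had 158.4 ± 26.9 in KO and 144.3 ± 26.1 in WT (limma adjusted p = 0.721). The lactate importer or exporter Slc16a1 had 16.6 to 24.9 in KO, against 10.6 to 33.9 in WT (adjusted p = 0.924). A further 2 rows matched the symbol form without being carriers. Slc7a6os, a gene beside Slc7a6, had 159.4 ± 18.6 in KO and 155.6 ± 20.1 in WT, and Slc4a1ap, which encodes an adaptor protein, had 50.8 ± 7.01 in KO and 50.9 ± 9.35 in WT (limma adjusted p = 0.924 and 0.996). Since it is not stated whether counting used strand, reads of overlapping neighbours may not be told apart.

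**Figure D3:**
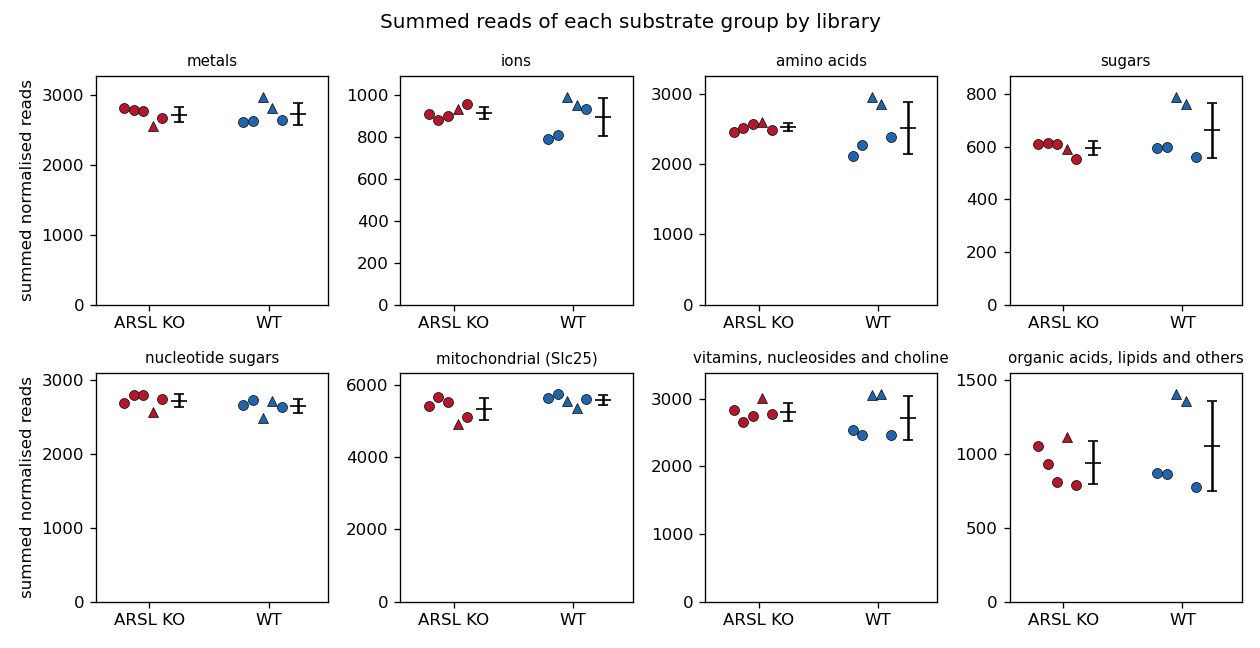
Summed normalised reads of the 8 substrate groups in each ARSL KO (red, left) and WT (blue, right) library, with triangles for KO 4, WT 3 and WT 4 and bars for mean ± SD (n = 5 each). WT 3 and WT 4 lie above the other WT libraries for metals, ions, amino acids, sugars, vitamins with nucleosides and choline, and organic acids, and not for nucleotide sugars or mitochondrial carriers.

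The WT libraries also differed among themselves. The split of WT 3 and WT 4 from WT 1, WT 2 and WT 5 was seen in these same values, so what follows is a description with no test. In 46 of 130 tested carriers, 35.4%, WT 3 and WT 4 both lay above the other WT libraries, beside 27.2% of all tested genes. They both lay below in 19 carriers, 14.6%, beside 29% of all tested genes. KO 4 lay above the other 4 KO libraries in 22 of the 46 and below them in 1, and it was the lowest KO library in 12 of the 19 and the highest in 0. Over all tested genes KO 4 was highest in 53.0% of those high in WT 3 and WT 4, and lowest in 56.4% of those low in them. Mitochondrially encoded genes with a Mt- symbol took 4.59% and 4.47% of reads in WT 3 and WT 4, against 6.26% to 6.41% in the other WT libraries, and in this WT 3 and WT 4 lay within the KO range of 3.67% to 5.03%. Summed chondrocyte markers were 76204 and 76305 normalised reads in WT 3 and WT 4, against 45499 to 48277, and summed osteoblast markers were 1338 and 1301, against 760.9 to 807.6. The part of these in the carriers' levels was not tested.

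The counts by substrate group are a description, and differences between groups were not tested. They stand beside 27.2% of all tested genes above and 29% below. Of 14 tested organic acid and lipid carriers 9 were higher in WT 3 and WT 4 and 0 lower. Their summed levels were 1409 and 1359 normalised reads in WT 3 and WT 4, against 869.0, 864.3 and 774.8 in WT 1, WT 2 and WT 5. Slc16a3, the lactate exporter of glycolytic cells, had 192.6 and 183.6 in WT 3 and WT 4, against 70.6, 74.5 and 48.6, and the KO libraries spanned 81.2 to 124.5. It was singled out after its values were seen. Bsg, the chaperone that takes such lactate carriers to the cell surface, had 3681 and 3438 in WT 3 and WT 4, against 1396, 1347 and 1587 in the other WT libraries. The fatty acid transporter Slc27a1, also singled out afterwards, had 135.7 and 127.2, against 64.5, 65.8 and 48.6.

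Slc22a17, a receptor for the iron-binding protein lipocalin 2, had the widest gap of all tested carriers, with 137.9 and 163.5 normalised reads in WT 3 and WT 4, against 47.1, 48.4 and 44.4. Slc37a3 had 292.1 and 283.9 in WT 3 and WT 4, against 116.8, 116.1 and 117.3, so that the 3 other libraries lay within 2 reads of each other. Slc29a1, the main equilibrative nucleoside transporter, had 396.1 and 435.9, against 159.5, 175.2 and 167.0. KO 4, at 280.1, was the highest KO library for Slc29a1 and, at 195.2, for Slc37a3.

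Amino acid carriers had 9 of 21 tested members above and 2 below. Their sums were 2955 and 2850 normalised reads in WT 3 and WT 4, against 2112, 2273 and 2377 in WT 1, WT 2 and WT 5. Slc38a3 showed the widest gap upward, with a mean of 728.8 in WT 3 and WT 4 and 376.0 in the others, 1.94-fold. Slc7a5 went the other way, with 19.7 and 32.5 against 38.4, 48.4 and 50.7, while its partner Slc3a2 had 450.8 and 452.2 against 337.3, 375.5 and 426.0. The members of this exchanger thus lay on opposite sides of the other WT libraries.

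Metal carriers had 8 of 24 tested members above and 2 below. Slc39a4, a zinc importer, had 60.2 and 43.0 normalised reads in WT 3 and WT 4, against 20.9, 17.4 and 27.5. Slc39a14 of the same family had 107.2 and 74.6, against 187.4, 226.5 and 163.8, and KO 4 was its lowest KO library. Among ion carriers, 4 of 15 above and 0 below, the bicarbonate cotransporter Slc4a4 had 40.5 and 25.8, against 8.72, 11.6 and 10.6. Its reads were few, 165 in all 10 libraries.

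Mitochondrial carriers split both ways, with 6 of 23 above (26.1%) and 7 below (30.4%). These shares lay near the 27.2% and 29% of all tested genes, so the split is not particular to them. The citrate carrier Slc25a1 had 674.0 and 639.6 normalised reads in WT 3 and WT 4, against 324.3, 317.4 and 285.4. The ADP/ATP carrier Slc25a5 had 109.4 and 69.8, against 170.8, 188.7 and 168.1, and the phosphate and copper carrier Slc25a3 had 260.4 and 242.8, against 488.1, 518.7 and 378.4. Slc25a4 had 1412.5 and 1534.4, against 2143.4, 2224.0 and 2150.1. Slc25a3 was singled out after its values were seen.

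Nucleotide sugar carriers had 4 of 13 above and 4 below (30.8% each), and the remaining sugar carriers 2 of 8 above and 2 below (25% each). Both were near the shares over all tested genes. The UDP-galactose transporter Slc35a2 had 53.6 and 66.0 normalised reads in WT 3 and WT 4, against 28.8, 27.1 and 26.4. Slc35a4 had 190.4 and 190.2, against 224.0, 267.1 and 215.6, and Slc50a1, a glucose carrier of internal membranes, had 146.6 and 152.0, against 170.8, 168.4 and 162.8. Among the 10 tested carriers of vitamins, nucleosides and choline, 4 lay above and 1 below. The reduced folate carrier Slc19a1 had 25.2 and 14.3, against 46.2, 39.7 and 27.5, so the gap to WT 5 was small. Slc4a1ap had 39.4 and 45.9, against 56.7, 49.4 and 63.4.

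**Figure D4:**
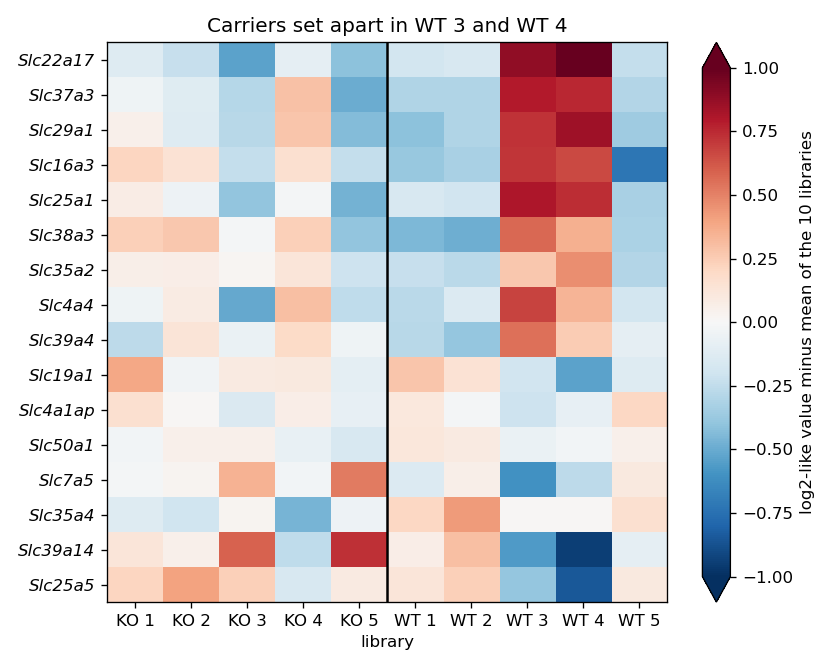
Log2-like value minus the mean of the 10 libraries for the carriers farthest above or below the other WT libraries in WT 3 and WT 4 in their substrate group, and Slc16a3, with ARSL KO libraries left of the line and WT libraries right of it. Red is above and blue below the mean, colours are capped at 1 in either direction, and the WT 3 and WT 4 columns are red for the upper 9 rows and mostly blue for the lower rows.

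The sequences just upstream of the start are shown for the 5 carriers with the widest upward gap in WT 3 and WT 4, since these were high together in the same libraries. They are the 250 bases before the start in RefSeq on the rat build GRCr8, read on the gene's strand, while the deposited table was made on rn6; 120 of the 154 members were matched to such an entry by symbol. Capitals mark ACGTG, the core that hypoxia-response elements and some E-boxes share, and GGGCGG, the core of the GC box, on either strand. Slc22a17 is from chr15:32358781-32359030 (minus strand), Slc37a3 from chr4:69120372-69120621 (minus), Slc29a1 from chr9:22896849-22897098 (plus), Slc16a3 from chr10:106712078-106712327 (plus) and Slc25a1 from chr11:96559804-96560053 (plus).
Slc22a17: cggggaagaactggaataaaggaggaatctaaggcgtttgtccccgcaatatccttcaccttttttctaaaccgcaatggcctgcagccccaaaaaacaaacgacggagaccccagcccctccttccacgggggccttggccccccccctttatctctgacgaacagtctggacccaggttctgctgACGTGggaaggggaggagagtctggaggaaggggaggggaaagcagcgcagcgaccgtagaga
Slc37a3: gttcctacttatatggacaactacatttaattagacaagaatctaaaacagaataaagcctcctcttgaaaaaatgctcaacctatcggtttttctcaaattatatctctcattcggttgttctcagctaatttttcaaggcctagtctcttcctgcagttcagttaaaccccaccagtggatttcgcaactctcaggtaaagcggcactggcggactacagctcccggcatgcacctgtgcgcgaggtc
Slc29a1: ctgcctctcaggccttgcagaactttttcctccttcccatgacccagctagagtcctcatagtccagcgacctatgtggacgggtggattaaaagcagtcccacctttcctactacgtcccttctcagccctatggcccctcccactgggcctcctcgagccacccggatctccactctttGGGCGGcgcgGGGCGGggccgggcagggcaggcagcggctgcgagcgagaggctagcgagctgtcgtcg
Slc16a3: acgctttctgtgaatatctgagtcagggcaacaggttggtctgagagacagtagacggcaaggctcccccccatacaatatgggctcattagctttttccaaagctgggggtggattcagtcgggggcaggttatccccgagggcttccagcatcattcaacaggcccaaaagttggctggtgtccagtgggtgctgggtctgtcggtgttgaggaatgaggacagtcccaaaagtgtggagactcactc
Slc25a1: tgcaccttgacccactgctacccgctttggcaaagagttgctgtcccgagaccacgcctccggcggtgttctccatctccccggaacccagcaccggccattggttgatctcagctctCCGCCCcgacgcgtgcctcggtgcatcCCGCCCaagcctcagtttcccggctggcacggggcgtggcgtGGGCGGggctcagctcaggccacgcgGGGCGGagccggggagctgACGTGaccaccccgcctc
ACGTG was found once upstream of Slc22a17 and once upstream of Slc25a1, and GGGCGG at 2 places upstream of Slc29a1 and 4 upstream of Slc25a1. Upstream of Slc37a3 and Slc16a3 there was no match to either in this window. The motifs can share letters at their ends, and CACGTG would count on both strands. Of all 33469 promoter entries of this length 16.6% held ACGTG, beside 29.5% of the 129 entries of the members and 29.3% of the 41 entries of carriers higher in WT 3 and WT 4. GGGCGG was in 30.5% of all entries, 64.3% of those of the members and 53.7% of those of carriers higher in WT 3 and WT 4. The 33469 entries were not limited to genes of the deposited table, while every member is one. The comparison is thus not a like one, and it does not show a trait of carrier promoters. A match is a description of the sequence and does not show that a factor binds there.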

How the data were processed

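Messenger RNA of RCS cells was measured in 5 ARSL KO and 5 WT libraries. Tools named in the submitters' processing notes are bcl2fastq, HTSeq and STAR 2.7.11a, with the genome build rn6. The authors deposited 1 table of variance-stabilized, log2-like values for 10184 genes, normalized for library size. No source used here names the program that made them, the filter on genes or the strand setting. The transformation was inverted from its lowest value, 4.42, to normalised reads. After division by the step that 1 read makes, 100% of values lay within 0.001 of whole reads (largest departure 3.4e-09). Each listed gene then had 30 or more reads summed over libraries and was read in 3 or more of them.

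Differences (KO minus WT) were fitted to the deposited values by limma (version 3.58.1, R 4.3.3), two-sided, with a trended prior variance and no covariate. The 8431 genes averaging 1 or more above the lowest value entered, and p-values were adjusted over all of them by Benjamini-Hochberg; calls have an adjusted p under 0.05. The fit was also run on simulated libraries with known changes. These were drawn independently of each other, without a shared shift like that of WT 3, WT 4 and KO 4. That run thus does not show how the fit does with such a split. Substrate groups were set by family. Named carriers were every called member and its family, and in each substrate group the member with the most reads, the largest change without overlap and the widest gap of WT 3 and WT 4 in each direction; others are members at an unadjusted p under 0.05 (not all are reported here), those called without WT 3, WT 4 and KO 4, and carriers of known function added for context after their values were seen. The members, groups and lists were chosen with earlier results of these data known. The planned edgeR and DESeq2 fits were not run on the deposited values, which are log2-like. They were not applied to the recovered reads either, and limma-voom on those reads took their place. Depth, 2065594 to 2591819 reads over the listed genes, limits the precision of weakly expressed carriers. Figures were drawn with matplotlib 3.10.9.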

Additional observations from a re-analysis of the deposited data

Results flagged for a closer look

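Among the 26 members named by rule, 52 groups of 5 libraries were examined for a library far from the others. Of these 1 stood out, where chance flags about 1 in 20. Slc7a6os had 190.3 normalised reads in WT 5, against 137.7 to 151.1 in WT 1 to WT 4. The KO libraries of this gene lay between 135.3 and 180.0.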

How the results depend on the processing

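The fall of Slc41a1 kept its direction in all fits run, and its adjusted p was 0.00762 to 0.0625. Leaving out 1 library at a time gave differences of -0.64 to -0.52 and 7 of 10 fits in which it passed, with 0 to 2 falls among the carriers and 0 rises; the second fall, without KO 4, was Slc48a1. Without WT 3, WT 4 and KO 4 there were 3 rises and 4 falls among the carriers, and Slc38a3 (0.44), Slc35a4 (-0.35) and Slc25a4 (-0.31) then passed. In that subset the signs of uncalled carriers turned for Slc4a1ap (-0.11), Slc29a1 (0.16), Slc19a1 (-0.011), Slc37a3 (0.062), Slc4a4 (0.014), Slc39a4 (0.19), Slc35b1 (-0.028) and Slc25a1 (0.013). After quantile normalization those of Slc39a4 (0.0058) and Slc35b1 (-0.0018) turned, and with limma-voom that of Slc39a4 (0.07). With 1 library left out the ranges crossed 0 for Slc7a6os (-0.0086 to 0.089), Slc4a1ap (-0.051 to 0.053), Slc39a4 (-0.12 to 0.12), Slc35b1 (-0.04 to 0.053) and Slc35a2 (-0.047 to 0.14); the cause was not tested. The counts of carriers with WT 3 and WT 4 above (46) or below (19) the other WT libraries were 34 to 55 and 14 to 21 under other scalings and filters, chosen after seeing the data. Same-numbered libraries deviated from their group means with correlations of -0.293 to 0.587. Whether equal numbers mark a shared culture or preparation is not given, and these correlations cannot decide it. A replicate block gave a difference of -0.58 for Slc41a1 (adjusted p = 0.0212), left it the 1 call among the carriers and raised the count over all genes to 136 (96 without it). The edgeR and DESeq2 alternatives were not run. Over all genes 96 passed, beside 60 of 5770 with a stricter filter, 33 (without KO 3) to 101 with 1 library left out and 300 without WT 3, WT 4 and KO 4. Depth limits the weakest carriers, which had as few as 30 reads over the 10 libraries.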
